A study of Mus musculus with 15 samples.

Results

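Making a messenger RNA in mammalian cells takes RNA polymerase II together with a set of general factors, and the mRNAs that encode this machinery were followed here as they decayed. The genes are the subunits of RNA polymerase II (Polr2), the general transcription factors (Gtf2), the TBP-associated factors, or TAFs (Taf), and the subunits of Mediator (Med). They were chosen by symbol alone: a gene was included when a probe set with a single gene symbol had one that started with Med, Taf or Polr2 and its subunit number or letter, or with Gtf2. The rule found 82 genes among 19452 genes with a single symbol, on 92 probe sets. Of these genes 75 had 1 probe set and 7 had more, and these were read from whichever had the highest 0 min mean. Another 3 probe sets carried a symbol of this kind beside that of a different gene and were left out.

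RNA polymerase II does not find promoters by itself. TFIID, built of the TATA-binding protein and the TAFs, reads the promoter, TFIIA and TFIIB settle it there and bring in the polymerase, TFIIF comes with the polymerase, and TFIIE and TFIIH open the DNA. Mediator is a large complex with a head, a middle and a tail, joined by a scaffold subunit, that carries signals from DNA-bound activators to the polymerase, and a detachable kinase module regulates it. Some of these genes belong elsewhere: a few TAFs sit in the SAGA coactivator or in the factor that recruits RNA polymerase I, some polymerase subunits are shared by all nuclear RNA polymerases, and the TFII-I family members are DNA-binding proteins outside the general machinery.

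The cells were C2C12, a mouse myoblast line (muscle precursor cells able to fuse into myotubes), obtained as CRL-1772. They carried the empty LKO1 vector, were kept in puromycin and were treated as subconfluent myoblasts. Every sample, including the one called 0 min, had first been in 8 µg/mL actinomycin D, which blocks RNA synthesis, for 30 min, and total RNA was then collected at 0 min and after a further 10, 50, 110 or 230 min. There were 3 replicate time courses, 15 Affymetrix Mouse Gene 1.0 ST arrays in all and no untreated sample, so the 0 min arrays serve as the start of the decay and not as a control without drug. Per the study's methods the whole treatment was carried out 3 times, with 1 array per time point. No source used here says whether the repeats came from separately grown cultures or were run on different days, so part of the array-to-array spread behind the p-values may be technical.

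Each value is a linear ratio to the 5th percentile of its array, and a value of 1 therefore marks the array's floor. The 75th percentile of the arrays lay between 7.80 and 9.81 at 0 min and between 2.89 and 4.63 at 230 min. A pair of arrays stood low, the 110 min array of replicate 1 at 3.90 and the 230 min array of replicate 2 at 2.89. All 6 of the myoblast markers examined, Myod1 among them, were above the median level over all probe sets, against 3 of 9 myotube markers (Acta1, Tnnt3 and Mef2c), and Myog, Ckm, Ttn and the myosin heavy chains Myh1, Myh3 and Myh8 were below it. In these bulk samples fewer cells and less RNA per cell cannot be told apart.

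Of the 82 genes, 77 had a mean log2 ratio over all 15 arrays above the median of 25175 probe sets and were tested within the 12587 probe sets above it, called expressed below. The 5 that did not pass were Taf7, whose product restrains the acetyltransferase activity of Taf1, Med12l, a relative of the kinase module subunit Med12, Gtf2a1l, a TFIIA subunit known from germ cells, and the Taf7 relatives Taf7l and Taf7l2. Their values ran from 1.01 to 2.35 over all arrays. Taf7 was the brightest of these on its own scale, at 2.27, 2.35 and 1.85 at 0 min and 1.59, 1.51 and 1.39 at 230 min. No decay was tested for them.

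Nearly all of the transcripts fell. A straight line through log2 ratio against time, with the time course as a block, fell in 76 of 77 genes (limma, Benjamini-Hochberg adjusted p under 0.05 over all 12587 probe sets), against 96.2% of all expressed probe sets, a share near that of the genes. Their median slope was -0.30 log2 per hr, beside -0.25 over all expressed probe sets, and 57 of 77 were steeper than the latter. The slope was below 0 in all 3 time courses in 77 of 77, a count not made over all expressed probe sets. By 230 min the genes retained between 17.8% and 85.8% of their mean 0 min ratio, with a median of 47.4%. The 0 min values lay above those at 50, 110 and 230 min without overlap in 14, 61 and 72 of the 77 genes. That share was not counted over all expressed probe sets at any time. The 75th percentiles of the 0 min arrays did not overlap those of the 110 or 230 min arrays either. A lack of overlap at 110 or 230 min, given for single genes below, therefore does not set a gene apart. Whether it does so at 50 min cannot be said without that share. How many fall depends on how the arrays are scaled: dividing by the array median left 45 of the 77 falling and 0 rising, and dividing by the 75th percentile left 20 falling and 24 rising. Of all expressed probe sets 37.3% and 15.6% fell under these 2 scalings.

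The fall came late. At 10 min 0 of 77 genes were lower than at 0 min (limma, adjusted p under 0.05), as were 0% of all expressed probe sets, and at an unadjusted p under 0.05 it was 0 of the genes and 112 of all probe sets. At 50 min 2 genes were lower against 1.82% of all probe sets, at 110 min 73 against 83.5%, and at 230 min 76 against 94%. These counts too depend on the scaling. Relative to the 75th percentile of the array, 13 genes were lower and 9 higher at 110 min, and 19 lower and 20 higher at 230 min. Of all expressed probe sets 9.71% and 14.5% were lower at these times, and the share higher was not counted. The median change at 230 min was then 0.06 for the genes and 0.27 over all expressed probe sets. At the deposited scaling the median change of the genes was -0.13, -0.10, -0.86 and -1.11 log2 at the 4 times, beside -0.10, -0.11, -0.69 and -0.90 over all expressed probe sets. The 2 early genes were Med18 and Med26, named here after their values were seen.

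**Figure D1:**
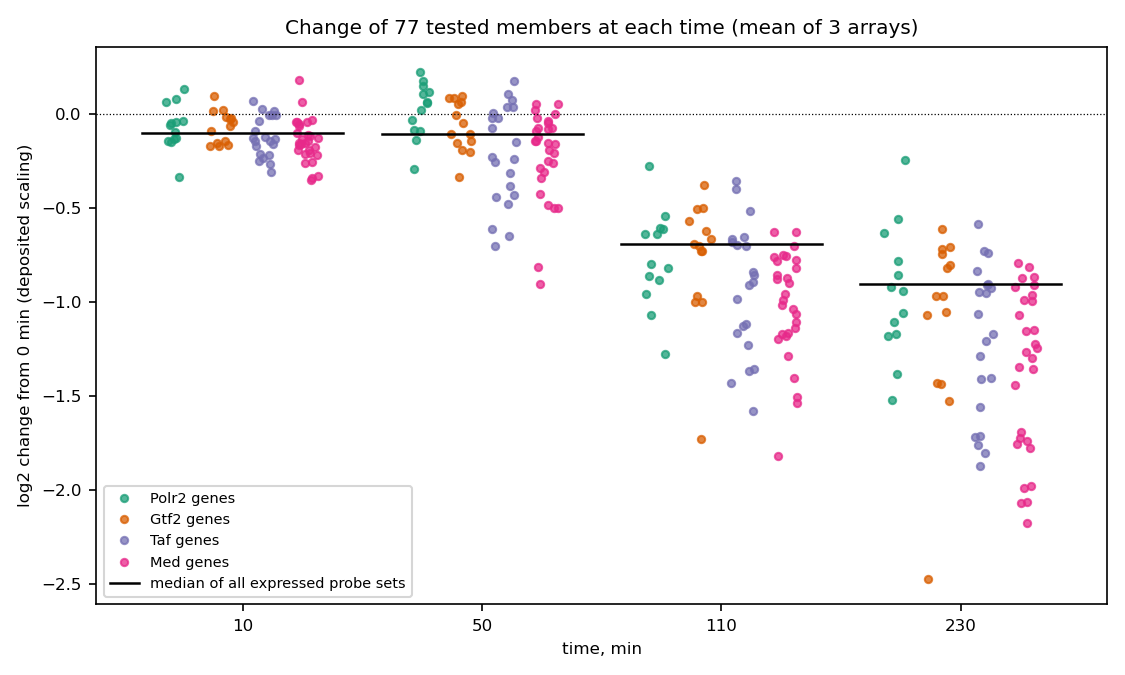
Log2 change from 0 min (y axis, deposited scaling, mean of 3 arrays) of the 77 tested genes at 10, 50, 110 and 230 min (x axis), 1 point per gene, coloured by the start of the symbol, with a bar at the median of all expressed probe sets. At 50 min the lowest points are Med18 (-0.90), Med26 (-0.81) and Taf5l (-0.70), below a bar at -0.11, and at 230 min they spread from -0.24 (Polr2k) to -2.47 (Gtf2b).

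Med18, a head subunit that contacts the polymerase, was at 7.3, 4.83 and 5.67 at 0 min, 6.65, 5.08 and 4.67 at 10 min, 3.37, 2.91 and 3.12 at 50 min, 1.35, 1.76 and 1.91 at 110 min and 1.59, 1.26 and 1.63 at 230 min. Every 50 min array was below every 0 min array, and the last values lay close to that floor of 1. The change at 50 min was -0.90 ± 0.21 log2 (SE, limma adjusted p = 0.0053). Med26, which links Mediator to elongation factors, was at 5.07, 4.22 and 3.65 at 0 min and 2.71, 2.16 and 2.47 at 50 min, again without overlap, a change of -0.81 ± 0.21 log2 (SE, limma adjusted p = 0.017). Both calls rested on few arrays. With a time course left out the count at 50 min was 0 or 1 gene, against 0.493% to 1.02% of all expressed probe sets. Without the 2 low arrays it was 11, against 7.68%.

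To take out the fall shared by the whole array, the slope was also measured relative to the median log2 ratio of the expressed probe sets on each array. On that scale 20 of 77 genes (26.0%) decayed faster, against 15.7% of all expressed probe sets, and 24 (31.2%) decayed slower, against 50.9%, while 33 were called neither way. The median relative slope was 0.01 log2 per hr for the genes and 0.07 for all expressed probe sets. The array median fell more than the typical probe set, whose slope relative to it is therefore above 0. With each array centred instead on the median deviation of its probe sets from their own means, a choice made after the values were seen, 32 genes (41.6%) were faster against 25.2%, and 6 (7.79%) slower against 23.1%, with an all-probe-set median of 0.01. All 20 faster genes were also faster on the second scale, and 6 of the 24 slower genes stayed slower. The relative slope was below 0 in all 3 time courses in 20 of the 20 faster genes and above 0 in all 3 in 23 of the 24 slower ones. The genes were called from a fit to these same courses, so this count describes the calls and gives them no separate support.

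**Figure D2:**
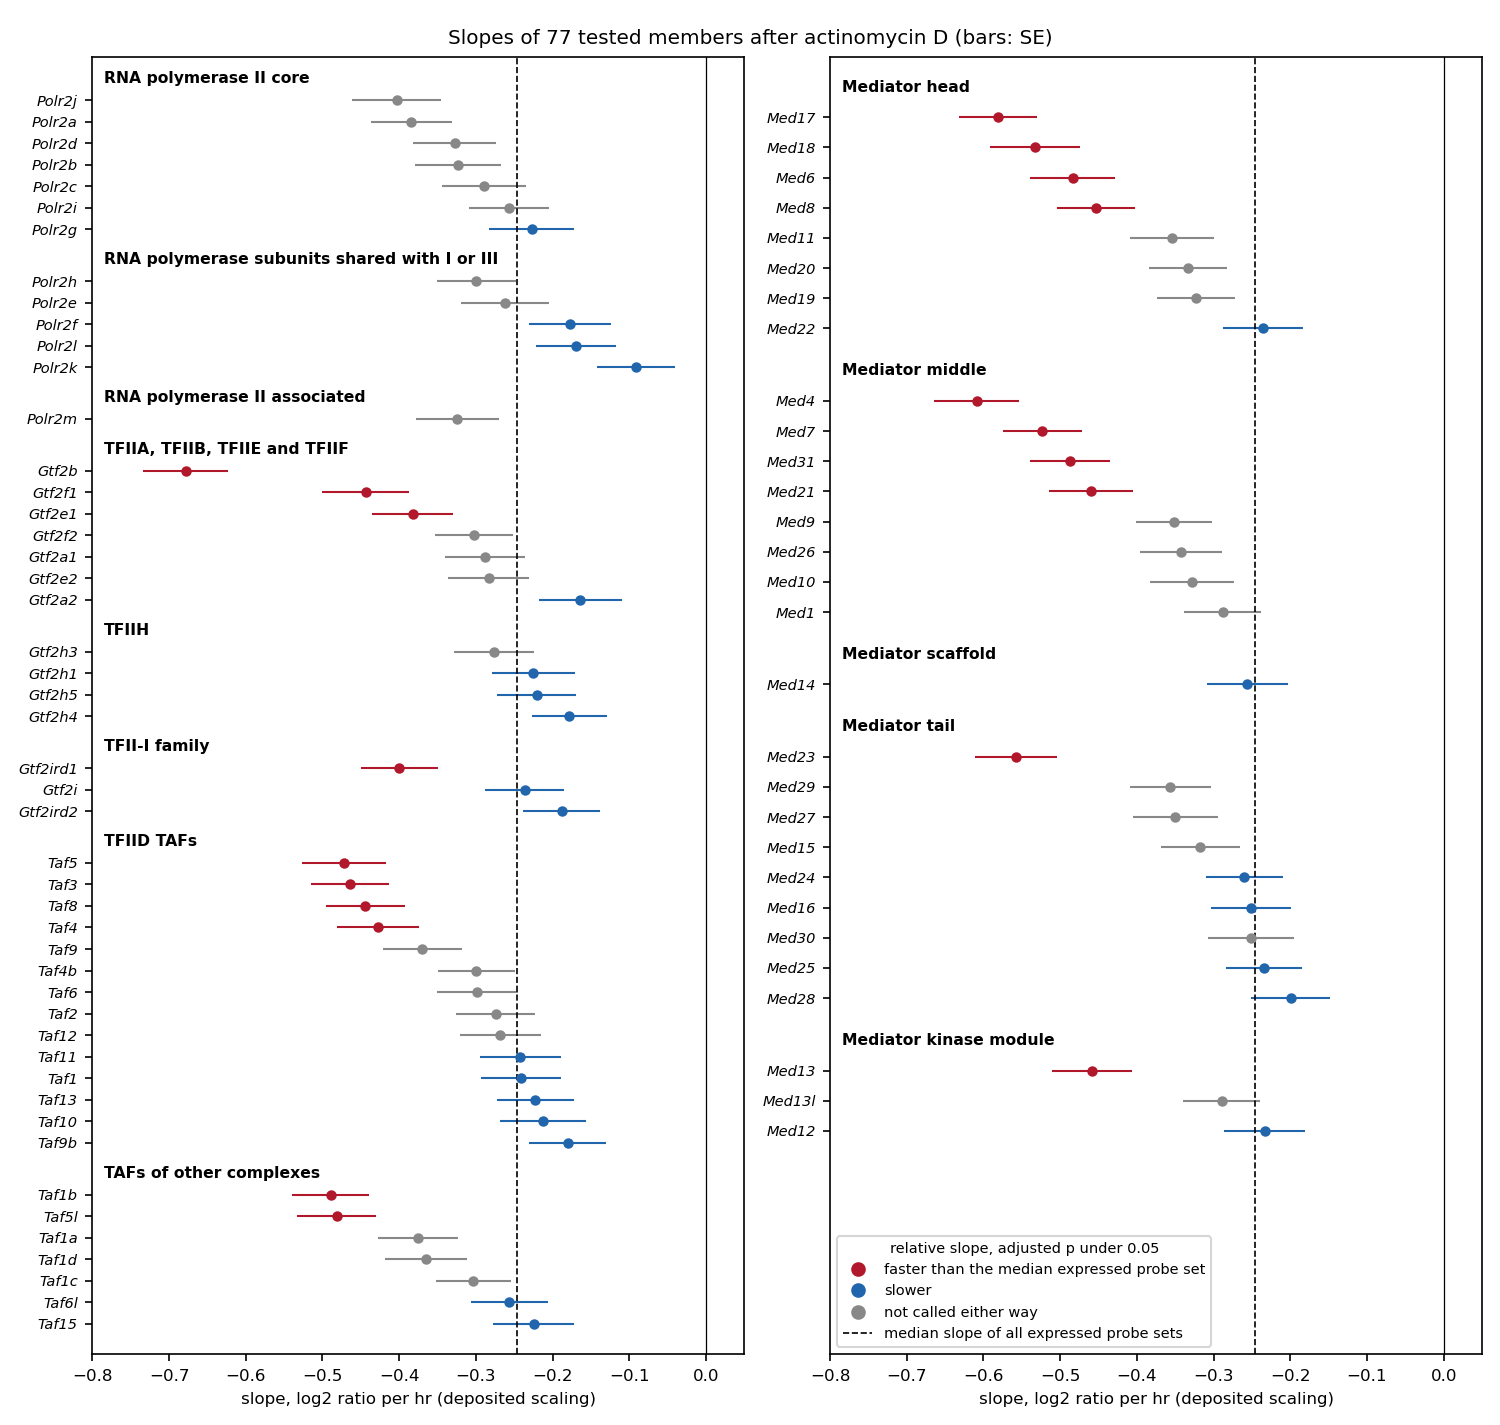
Slope of log2 ratio against time (x axis, log2 per hr at the deposited scaling, bars SE) for the 77 tested genes, grouped by complex (y axis). Red and blue mark genes that decayed faster or slower than the median expressed probe set and the dashed line is the median slope of all expressed probe sets, -0.25; Gtf2b, at -0.68, is the farthest to the left and Polr2k, at -0.09, the farthest to the right.

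Of the 13 Polr2 genes, none decayed faster than the median expressed probe set, against 15.7% of all expressed probe sets, and 4 (30.8%) decayed slower, against 50.9%. Under the second centring (25.2% of all faster and 23.1% slower) 2 were faster, Polr2a (limma adjusted p = 0.0044) and Polr2j (0.0062), and 3 slower. Polr2a, the largest subunit, with the active site and the C-terminal repeat, was at 39.95, 20.0 and 43.3 at 0 min and 19.7, 7.25 and 13.7 at 230 min. All of the late values were below the early ones, with 39.3% of the mean left, and the slope was -0.38 ± 0.05 (SE) log2 per hr (limma adjusted p = 4.8e-09). Relative to the array its slope was -0.07 (adjusted p = 0.072). Polr2b, which completes the active centre, was at 32.2, 18.7 and 21.8 at 0 min, 26.4, 24.4 and 29.3 at 50 min and 15.7, 5.41 and 16.97 at 230 min, and its values at 0 and 50 min overlapped. Its slope was -0.32 ± 0.06 (SE), and -0.01 relative to the array (adjusted p = 0.89).

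Within the 7 core subunits particular to RNA polymerase II, the slopes ran from -0.40 for Polr2j, which helps assemble the enzyme, to -0.23 for Polr2g, part of the stalk that binds emerging RNA. Polr2g alone among them was called slower (0.09 ± 0.03 (SE) relative to the array, adjusted p = 0.016, and 0.44 under the second centring). Polr2m, whose product binds the polymerase and holds back transcription, had a relative slope of -0.01 (adjusted p = 0.84).

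The 5 subunits shared with RNA polymerase I or III had the shallowest median slope of the groups with 3 or more tested genes, -0.18 log2 per hr. Polr2k, a small zinc-binding subunit common to all nuclear polymerases, was at 2.4, 2.12 and 2.64 at 0 min, 2.29, 2.57 and 2.92 at 50 min and 2.47, 1.54 and 2.13 at 230 min. Its 0 and 230 min values overlapped, and it was the only tested gene without a called fall (-0.09 ± 0.05 (SE) log2 per hr, limma adjusted p = 0.078). Polr2k was tested because the level filter used the mean over all arrays. At 0 min it was below the array median in replicates 1 and 2 (medians 2.6 and 2.74) and above it in replicate 3 (2.42). A filter asking for a ratio above the array median at 0 min in at least 2 of 3 replicates leaves it out. With that filter 76 of 76 genes fell, 20 were faster and 23 slower, against 96.4%, 15.7% and 50.0% of all probe sets that passed it. The ratios of Polr2k lay near the floor of 1, where a fall is compressed. With 1 subtracted from the ratios, and anything then under 0.5 set to 0.5, its relative slope was 0.21 (adjusted p = 0.00034), close to the 0.23 without subtraction (adjusted p = 1.4e-06). This takes away the array's 5th percentile only, and whether more background remains in these ratios was not tested.

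Polr2l, another small shared subunit, is far above that floor. It was at 35.3, 27.7 and 29.8 at 0 min, 29.7, 35.6 and 28.7 at 50 min, 15.4, 20.1 and 24.8 at 110 min and 25.2, 15.3 and 23.7 at 230 min. The late values were lower without overlap, yet 69.3% of the mean was left, and the relative slope was 0.15 ± 0.02 (SE) (limma adjusted p = 6.7e-05, and 0.0082 under the second centring). Polr2f, a shared subunit at the base of the clamp, had a similar value, 0.14 relative to the array (adjusted p = 0.00031, and 0.022). Of the remaining shared subunits, Polr2h had a relative slope of 0.02 (adjusted p = 0.61), but its second probe set gave 0.13 (adjusted p = 0.00083), so its call depends on the probe set. The second probe set of Polr2l gave 0.12 (adjusted p = 0.0012).

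**Figure D3:**
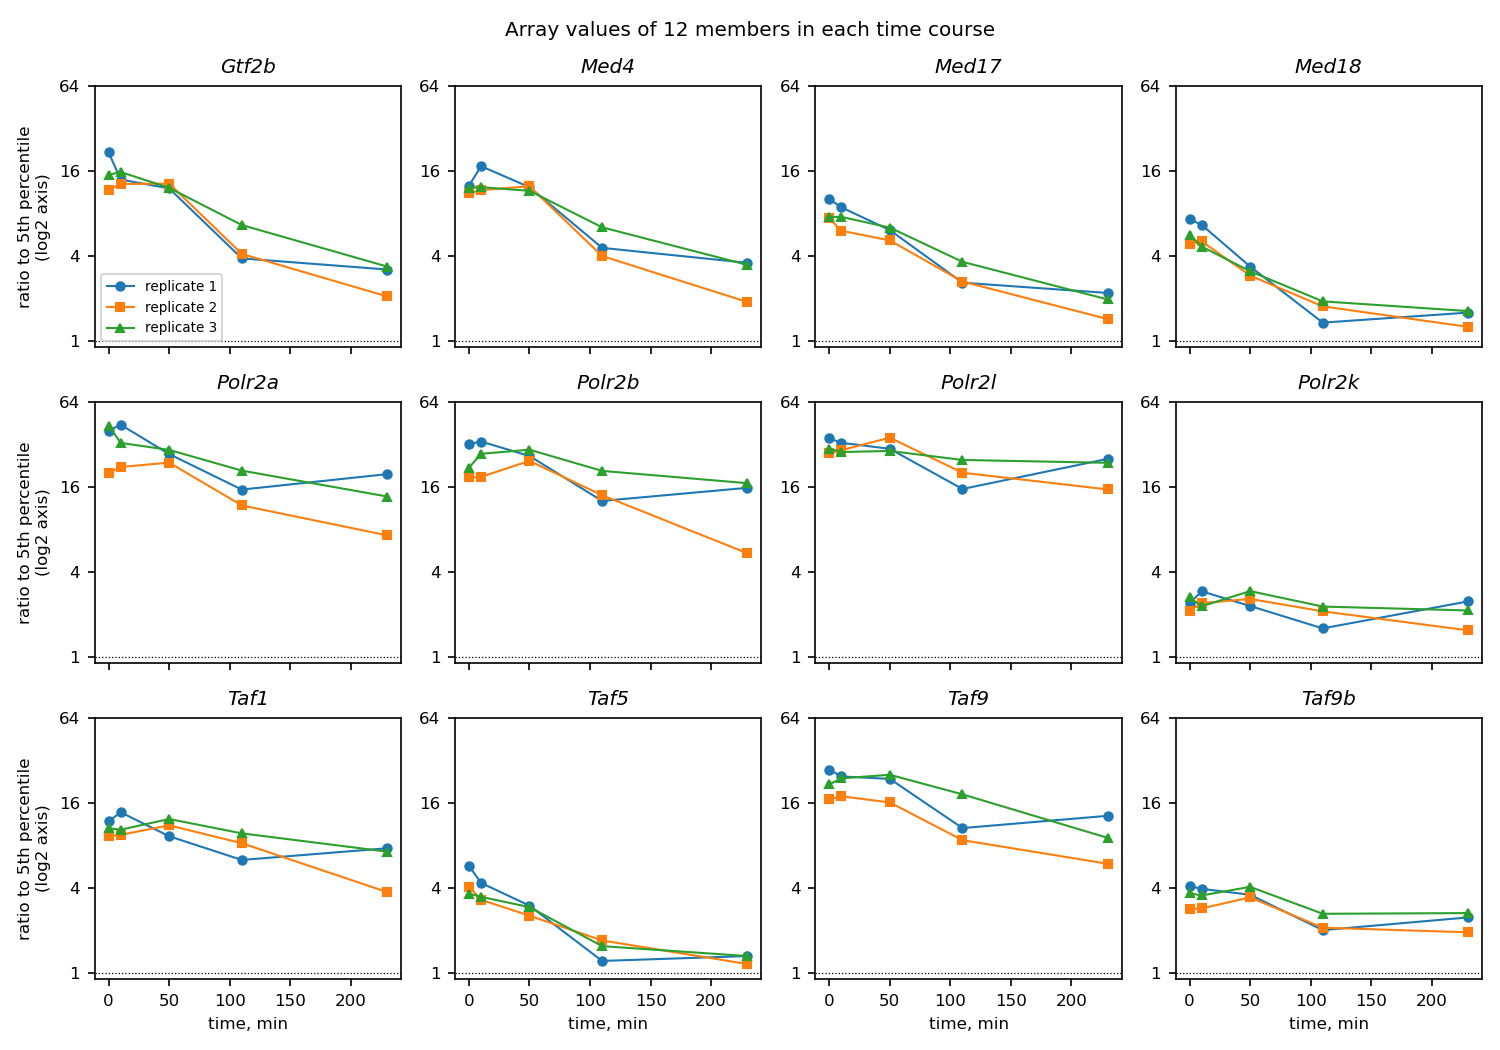
Ratio to the 5th percentile (y axis, log2 scale, dotted line at 1) of 12 genes against time in min (x axis), 1 line per replicate time course. Gtf2b, Med4, Med17, Med18 and Taf5 fall towards 1, Polr2l stays above 15 on every array and Polr2k stays between 1.54 and 2.92; in replicate 1 the 110 min point is often below the 230 min point, as in 66 of the 77 tested genes, against 0 in replicate 2 and 2 in replicate 3.

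Among the general factors, Gtf2b had the steepest slope and Gtf2a2 the shallowest. Gtf2b encodes TFIIB, which places the polymerase over the start site. Its values were 21.7, 11.8 and 15.04 at 0 min, 12.1, 13.03 and 12.2 at 50 min, 3.85, 4.14 and 6.63 at 110 min and 3.21, 2.07 and 3.37 at 230 min. The 0 and 50 min values overlapped, and those at 110 and 230 min were all below them, with 17.8% of the 0 min mean left at the end. Its slope was -0.68 ± 0.06 (SE) log2 per hr (limma adjusted p = 4.8e-16) and -0.36 ± 0.04 (SE) relative to the array (adjusted p = 3.3e-07), the steepest of the 77 genes on either scale. Of the other TFIIA, TFIIE and TFIIF genes tested, Gtf2f1 (-0.13, adjusted p = 0.0086) and Gtf2e1 (-0.07, adjusted p = 0.019) were faster, while their partners Gtf2f2 (0.01) and Gtf2e2 (0.03) were called neither way.

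Gtf2a2, the small subunit of TFIIA, was at 6.72, 7.54 and 4.74 at 0 min and 5.56, 2.82 and 4.31 at 230 min. The 2 groups overlapped, and the relative slope was 0.15 ± 0.04 (SE) (limma adjusted p = 0.0016, and 0.04 under the second centring). For TFIIH, which unwinds the promoter and repairs DNA, 3 of 4 core subunit genes were slower and none faster, where 50.9% of all expressed probe sets were slower. Under the second centring 1 of the 4 was slower, a share near the 23.1% of all. Gtf2h4 was at 6.47, 4.47 and 4.94 at 0 min and 3.54, 2.52 and 3.67 at 230 min, all late values being lower, and had a relative slope of 0.14 (adjusted p = 0.00052, and 0.024 under the second centring). Gtf2h5, the smallest subunit, had 0.10 (adjusted p = 0.0016, and 0.21), so its call was lost there. The steepest of the group, Gtf2h3, was called neither way (0.04, adjusted p = 0.18).

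The TFII-I relatives divided. Gtf2ird1, a DNA-binding regulator, fell from 10.7, 8.43 and 9.56 at 0 min to 4.51, 2.72 and 3.54 at 230 min and was faster (-0.08 relative to the array, limma adjusted p = 0.0036). Gtf2i, the signal-responsive founder of the family, went from 34.1, 23.3 and 25.3 to 20.8, 10.5 and 16.9 and was slower (0.08, adjusted p = 0.0057, and 0.47 under the second centring). Neither gene's 0 and 230 min values overlapped. Gtf2ird2 was slower at 0.13 (adjusted p = 0.0017), but its ratios were at most 3.19 and the call was lost with 1 subtracted (0.06, adjusted p = 0.28) and under the second centring (adjusted p = 0.068).

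Of 14 tested TFIID TAFs, 4 (28.6%) were faster and 5 (35.7%) slower, against 15.7% and 50.9% of all expressed probe sets. Their median relative slope was 0.03 log2 per hr. Under the second centring the counts were 5 (35.7%) and 1 (7.14%), against 25.2% and 23.1%. Taf13, counted as slower on the first scale, had a relative slope of 0.095 (limma adjusted p = 0.0038). Its second probe set gave 0.025 (adjusted p = 0.53), so its call depends on the probe set. Taf1, the largest TAF, which docks on promoter DNA and modified histones, was at 11.8, 9.26 and 10.5 at 0 min, 9.24, 11.04 and 12.2 at 50 min and 7.6, 3.72 and 7.19 at 230 min. The late values were all lower than the early ones, with 58.6% left. Its slope was -0.24 ± 0.05 (SE) log2 per hr (limma adjusted p = 3.9e-05), and 0.08 relative to the array (adjusted p = 0.041, and 0.68 under the second centring).

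The 4 faster TAFs were Taf5, Taf3, Taf8 and Taf4. Taf5, a scaffold of the TFIID core, was at 5.7, 4.07 and 3.63 at 0 min, 2.98, 2.53 and 2.91 at 50 min and 1.31, 1.15 and 1.31 at 230 min. Its 50 min values were all below those at 0 min, and by 230 min it was near 1 in every course. The slope was -0.47 ± 0.05 (SE) and -0.16 ± 0.04 (SE) relative to the array (limma adjusted p = 0.0022). Taf3, which reads methylated histone H3, had -0.15 (adjusted p = 4.7e-05), and Taf8, which brings Taf10 into the complex, -0.13 (adjusted p = 0.0039). Taf10 itself lay at the other end with 0.10 (adjusted p = 0.0098, and 0.28 under the second centring). Its second probe set gave 0.08 (adjusted p = 0.051). The slowest was Taf9b, at 4.1, 2.82 and 3.65 at 0 min and 2.46, 1.93 and 2.64 at 230 min, without overlap, and 0.14 relative to the array (adjusted p = 0.0002, and 0.022 under the second centring).

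The 7 TAFs that serve other complexes included 2 faster (28.6%) and 2 slower (28.6%) genes, against 15.7% and 50.9% of all expressed probe sets. Under the second centring the counts were 4 (57.1%) and 0, against 25.2% and 23.1%. Taf1b, of the RNA polymerase I selectivity factor, fell from 8.26, 6.82 and 6.33 at 0 min to 2.82, 1.9 and 1.7 at 230 min, without overlap, with a relative slope of -0.17 ± 0.03 (SE) (limma adjusted p = 8.5e-05). Taf5l, a SAGA subunit, fell from 6.86, 3.98 and 5.19 to 1.74, 1.18 and 1.4, also without overlap (-0.16 ± 0.04 (SE), adjusted p = 0.00069). Taf15, an RNA-binding protein of the FET family, was the shallowest, going from 28.6, 23.2 and 21.9 to 16, 8.34 and 16.4 (0.09, adjusted p = 0.043, and 0.49 under the second centring). Taf1d, of the same selectivity factor as Taf1b, was called neither way on the probe set used (-0.05, adjusted p = 0.19), whereas each of its 4 other probe sets was faster, at -0.15 to -0.16.

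Mediator, with 29 of the 77 tested genes, held 10 of the 20 faster ones. Of its genes 10 (34.5%) were faster, against 15.7% of all expressed probe sets, 7 (24.1%) slower, against 50.9%, and 12 neither. Under the second centring 17 (58.6%) were faster, against 25.2%, and 0 slower, against 23.1%. These shares are not particular to Mediator. Of the 61 other transcription genes described below 34.4% were faster and 18.0% slower, and 52.5% and 4.92% under the second centring. The head and middle modules, which touch the polymerase, had 8 faster and 1 slower of 16, and a median slope of -0.40 log2 per hr. The tail had 1 faster and 4 slower of 9, and a median slope of -0.26. Under the second centring 12 of the 16 and 4 of the 9 were faster. The difference between modules was not tested.

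In the head, Med17 is the subunit around which the module is built. It was at 10.1, 7.41 and 7.57 at 0 min, 6.11, 5.16 and 6.36 at 50 min, 2.59, 2.64 and 3.64 at 110 min and 2.19, 1.43 and 1.97 at 230 min. The values from 50 min on were all below those at 0 min, and 22.3% of the mean was left at 230 min. Its slope was -0.58 ± 0.05 (SE) log2 per hr and -0.26 ± 0.02 (SE) relative to the array (limma adjusted p = 1.3e-07). Med18 had -0.22 (adjusted p = 0.0018), which was -0.45 with 1 subtracted from the ratios (adjusted p = 0.00018), although its late ratios of 1.35 and 1.26 were then raised to the minimum of 0.5. Med6 (-0.17, adjusted p = 0.00068) and Med8 (-0.14, adjusted p = 5.8e-05), both head subunits, were also faster. Med22 was the exception, at 15, 6.28 and 8.57 at 0 min and 5.64, 2.95 and 6.2 at 230 min, and slower (0.08, adjusted p = 0.033, and 0.59 under the second centring).

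In the middle module Med4 held its level to 50 min before it fell. It was at 12.6, 11.2 and 12.2 at 0 min, 12.3, 12.5 and 11.6 at 50 min, 4.57, 4.0 and 6.39 at 110 min and 3.58, 1.89 and 3.46 at 230 min. The 0 and 50 min values overlapped and everything later was far below, with 24.9% left, a slope of -0.61 ± 0.05 (SE) log2 per hr and -0.29 ± 0.04 (SE) relative to the array (limma adjusted p = 5.4e-06). The second Med4 probe set gave -0.18 (adjusted p = 0.0021). Med7, which pairs with Med21 in the hinge of the module, fell from 6.67, 5.74 and 6.59 at 0 min to 4.29, 4.03 and 5.19 at 50 min and 1.95, 1.21 and 1.71 at 230 min (-0.21 ± 0.03 (SE) relative to the array, adjusted p = 7.3e-06). Neither later group overlapped the 0 min values. Med21 itself had -0.14 (adjusted p = 0.00054) and Med31, which binds Med7, -0.17 (adjusted p = 0.00012).

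Med1, the contact for nuclear receptors, was the shallowest of the middle module. It was at 15.8, 11.5 and 12.7 at 0 min and 8.01, 4.93 and 7.4 at 230 min, all late values being lower, and had a relative slope of 0.03 (limma adjusted p = 0.28). Med14, the scaffold that joins head, middle and tail, went from 23.5, 13.7 and 20.8 to 14.95, 6.38 and 11.6. Those groups overlapped, and the relative slope was 0.06 (adjusted p = 0.043, and 0.97 under the second centring).

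In the tail, Med23, through which growth factor signalling reaches Mediator, was at 12.1, 8.71 and 10.95 at 0 min, 7.27, 7.22 and 8.07 at 50 min and 3.09, 1.62 and 3.14 at 230 min. The groups did not overlap, 24.7% was left at the end and the relative slope was -0.24 ± 0.03 (SE) (limma adjusted p = 1.3e-06). Its tail neighbours Med24 (0.06, adjusted p = 0.021) and Med16 (0.07, adjusted p = 0.034) were slower, and so was Med28 (0.12, adjusted p = 0.0022). None of these slower calls held under the second centring (adjusted p = 0.94, 0.86 and 0.11).

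In the kinase module, Med13, the subunit that tethers the module to Mediator, went from 22.7, 17.4 and 20.01 at 0 min to 7.56, 9.22 and 10.1 at 110 min and 8.44, 4.43 and 5.87 at 230 min. Neither later group overlapped the first, and the relative slope was -0.14 ± 0.03 (SE) (limma adjusted p = 0.00025). Med12, which activates the module's kinase, was slower at 0.08 (adjusted p = 0.013, and 0.49 under the second centring).

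Several genes come as paralog pairs, and the log2 difference between 2 genes on an array does not depend on how that array is scaled. Of 8 pairs, 6 had both genes expressed, and 4 of the 6 differed in slope (two-sided permutation test, time labels permuted within each time course, 100000 resamples, Benjamini-Hochberg over the 6 pairs). Gtf2i fell less steeply than Gtf2ird1, by 0.16 ± 0.02 log2 per hr (SE, permutation adjusted p = 6e-05, from the smallest p of 1e-05 that the resamples can give). The difference was 0.14, 0.14 and 0.21 in the 3 courses. Med13 was steeper than Med13l, its alternative in the kinase module, with a difference of -0.17 ± 0.03 (SE, permutation adjusted p = 0.0014) and of -0.14, -0.16 and -0.21 by course. The 230 min arrays carried part of this call, as the adjusted p was 0.067 without them.

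Taf9 was steeper than Taf9b, with a difference of -0.19 ± 0.04 log2 per hr (SE, permutation adjusted p = 0.0016), with the same sign in every course (-0.09, -0.26 and -0.21). Taf9 and Taf9b encode histone-fold proteins that can each fill the same place in TFIID and SAGA. The call was lost with 1 subtracted from the ratios (adjusted p = 0.07) and without the 230 min arrays (0.15). Taf4 was steeper than Taf4b, a relative known from gonads, with a difference of -0.13 ± 0.05 (SE, permutation adjusted p = 0.033), but the courses were 0.01, -0.23 and -0.16, and with 1 subtracted the difference was -0.02 (adjusted p = 0.81). Taf4b was at most 1.76 at 230 min, close to the floor.

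For the pairs that divide between TFIID and SAGA no difference was called. Taf5 minus Taf5l was 0.01 ± 0.04 log2 per hr (SE, permutation adjusted p = 0.81) and Taf6 minus Taf6l was -0.04 ± 0.03 (SE, permutation adjusted p = 0.30). Taf6, a histone-fold TAF, and Taf6l had relative slopes of 0.02 and 0.06. In the pairs Med12 and Med12l, and Taf7 and Taf7l, at least 1 gene was below the level filter and no difference was tested.

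**Figure D4:**
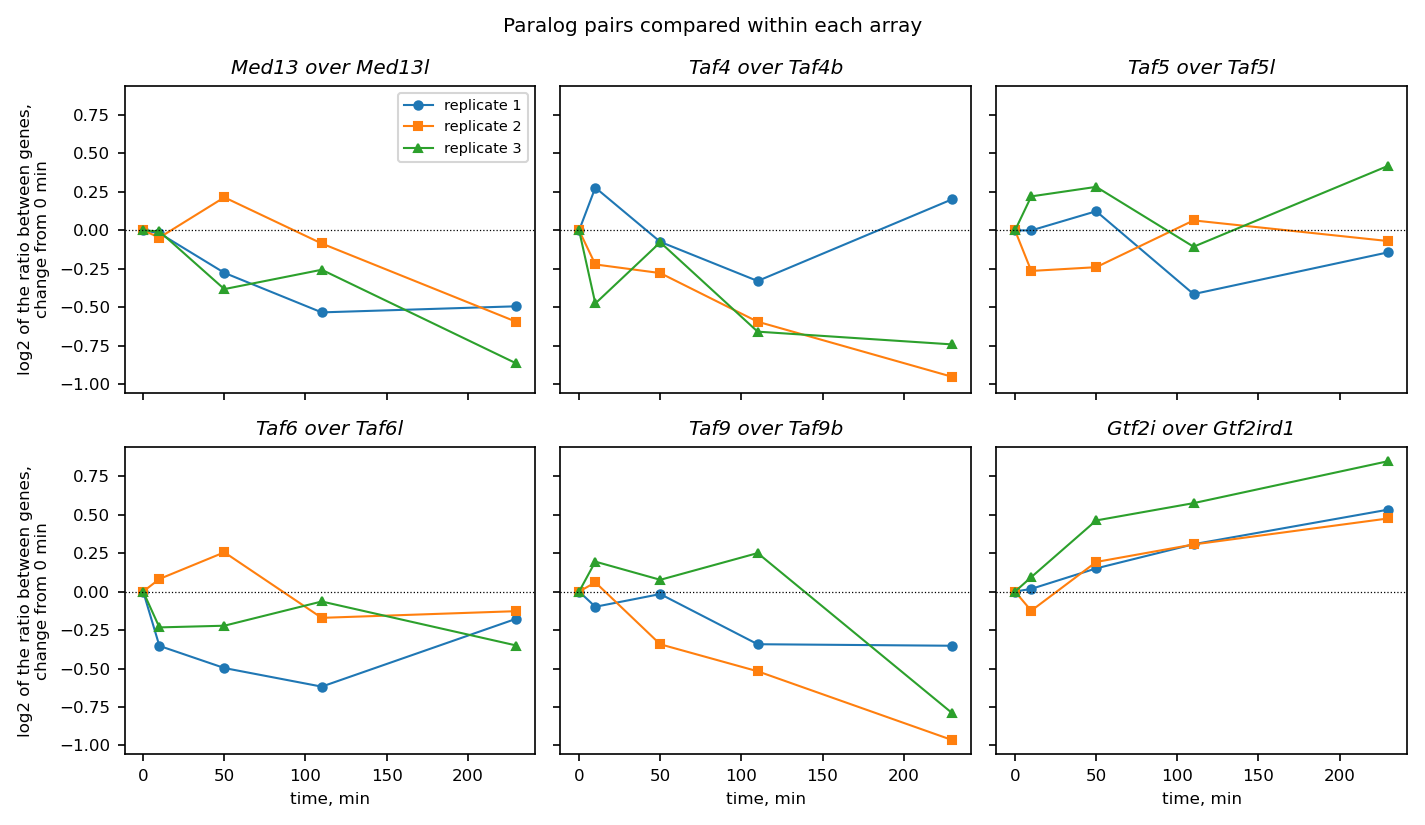
Log2 of the ratio between the genes of each of 6 paralog pairs on the same array, as change from 0 min (y axis), against time in min (x axis), 1 line per replicate time course. Gtf2i over Gtf2ird1 rises in all 3 courses (slope 0.16 log2 per hr), Med13 over Med13l (-0.17) and Taf9 over Taf9b (-0.19) end below 0 in all 3, and Taf5 over Taf5l (0.01) has no common direction.

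Half-lives were then fitted to the linear ratios of each course as a first-order decay, and a fit was taken as reliable when the decay constant had p under 0.05 and the 95% interval was narrower than 2 times the half-life. Of 77 genes 14 were reliable in at least 2 of 3 courses, against 11.1% of all expressed probe sets. The median half-life was 3.24 hr for the 77 genes (SD of the 3 course medians 0.949 hr), beside 4.20 hr (SD 1.05 hr) over all expressed probe sets. Whether the medians differ was not tested. Replicate 1, with its low 110 min array, gave a reliable fit in 3.896% of the genes, replicate 2 in 31.2% and replicate 3 in 32.5%. Of all expressed probe sets the shares were 4.385%, 24.271% and 22.023%, so the low share in replicate 1 was not particular to these genes. Leaving out the low 110 min array and the low 230 min array left 5 reliable genes, a count not made over all expressed probe sets.

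Only 3 of the 77 genes were reliable in all 3 courses, beside 208 of the 12587 expressed probe sets. Each of the 3 belongs to Mediator, which has 29 of the 77 tested genes, and so few genes do not make this a trait of Mediator. Med17 had 70.3, 89.1 and 114 min, which average 91.048 ± 21.8 min (SD, n = 3). Med23 had 70.967, 101 and 106 min, which average 92.6 ± 18.9 min (SD, n = 3), and Med7 had 86.3, 109.753 and 102 min, which average 99.3 ± 11.9 min (SD, n = 3). The 3 means lie within each other's SD. Fitting a floor of 1 shortened them to 69.4, 74.8 and 68.1 min.

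The other 11 reliable genes were Taf5l, Taf5, Taf8, Taf1b, Taf3, Med8, Taf1a, Taf1d, Med9, Med20 and Taf1c, with means from 96.034 min (Taf5l) to 176 min (Taf1c). The 4 TAFs Taf1a to Taf1d, of the RNA polymerase I selectivity factor, were thus all among the 14 reliable genes, while no Polr2 or Gtf2 gene was. The shortest mean belonged to Med18, 73.6 ± 20.3 min (SD, n = 3), which was reliable in 1 course. Gtf2b, steepest by slope, had 85.1 ± 23.6 min (SD, n = 3) and was likewise reliable in 1 course. Polr2a had 129, 154 and 133 min, which average 139 ± 13.7 min (SD, n = 3), without a reliable fit. The long half-lives were the least certain: that of Polr2k was 788 ± 325 min (SD, n = 3), and its upper limit was unbounded in every course.

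**Figure D5:**
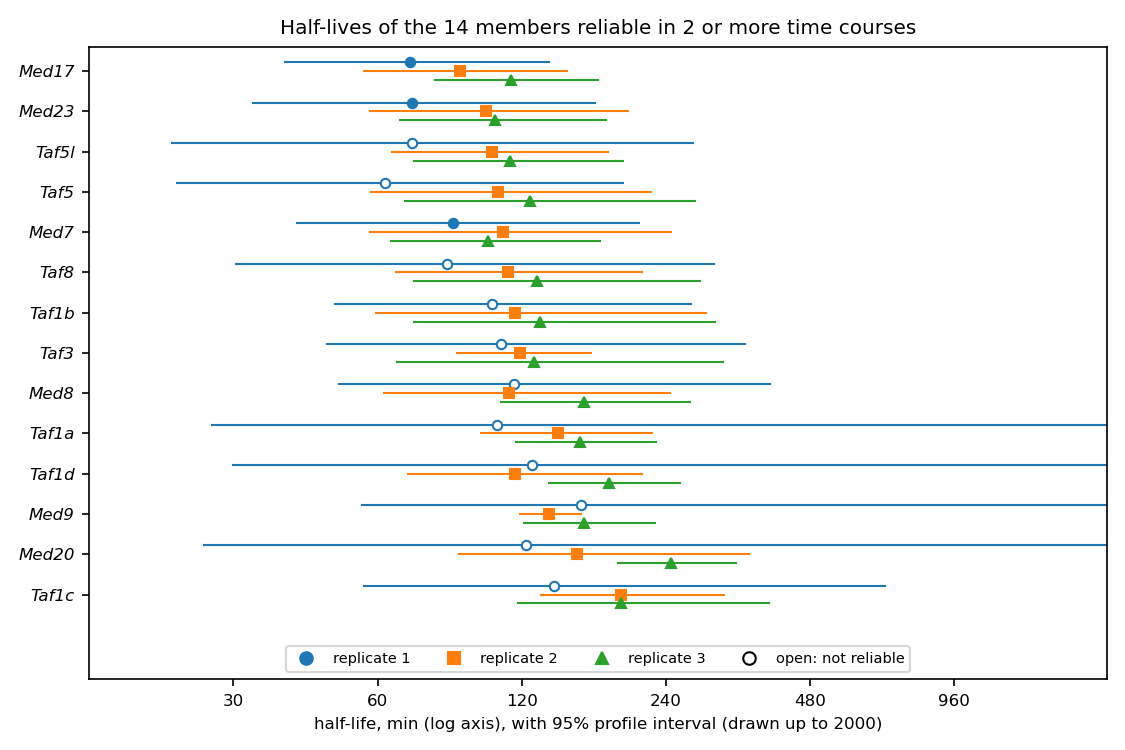
Half-life in min (x axis, log scale) with its 95% profile interval in each replicate time course for the 14 genes (y axis) that were reliable in 2 or more, ordered by mean. Filled symbols are reliable fits and open ones are not; Med17, Med23 and Med7 are filled in all 3 courses, and in the other 11 replicate 1 is open.

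Other genes of transcription were taken from lists written by their function. Of 64 on the array, 61 were expressed, 21 of these were faster and 11 slower than the median expressed probe set (against the 15.7% and 50.9% above), with a median relative slope of -0.02 log2 per hr. Under the second centring the counts were 32 (52.5%) and 3 (4.92%), against 25.2% and 23.1% of all expressed probe sets. Among TBP, its relatives and the Mediator kinases, Tbp itself, the subunit of TFIID that binds the TATA box, fell from 9.33, 7.99 and 7.65 at 0 min to 2.46, 1.75 and 2.27 at 230 min without overlap (-0.20 ± 0.02 (SE), limma adjusted p = 1.1e-06). Its relative Tbpl1 had -0.19 (adjusted p = 4.2e-06), while Drap1, a subunit of a TBP repressor (0.12, adjusted p = 0.0037), and Ccnc, the cyclin of the Mediator kinase module (0.12, adjusted p = 0.00057), were slower. Neither of these slower calls held under the second centring (adjusted p = 0.11 and 0.0503).

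Among the TFIIH kinase and helicase genes, Cdk7 fell from 15.6, 11.7 and 12.8 to 3.46, 2.0 and 3.11, without overlap, and was faster (-0.28 ± 0.02 (SE), limma adjusted p = 6.6e-08). Only the brightest probe set of each listed gene was read, and the second one of Cdk7 had a 0 min mean of 2.63, beside 13.3. The Cdk7 cyclin Ccnh (-0.03, adjusted p = 0.34) and assembly factor Mnat1 (0.02, adjusted p = 0.5) were called neither way, and the helicase gene Ercc3 was slower (0.07, adjusted p = 0.018, and 0.78 under the second centring). Among 30 pausing and elongation factors, 11 (36.7%) were faster and 5 (16.7%) slower, against 15.7% and 50.9% of all expressed probe sets. The steepest were the elongation kinases Cdk9 (-0.28, adjusted p = 1.1e-06) and Cdk13 (-0.28, adjusted p = 5.4e-07), and the shallowest were Nelfb, of the pausing factor NELF (0.15, adjusted p = 0.0022), and Elob, an Elongin subunit (0.15, adjusted p = 0.00025). Of 18 subunits of RNA polymerases I and III, 6 (33.3%) were faster and 2 (11.1%) slower, against the same shares of all expressed probe sets. Polr1c (-0.23, adjusted p = 3.3e-06) and Polr3d (-0.15, adjusted p = 0.00052) were at the steep end. The slower ones were Crcp (0.16, adjusted p = 0.00097) and Polr3k (0.10, adjusted p = 0.01). The call of Polr3k was lost under the second centring (adjusted p = 0.31).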

How the data were processed

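The data were 15 arrays of C2C12 (LKO1) myoblasts, 3 at each of 5 times after actinomycin D, and groups came from the sample labels. The values as deposited are linear ratios, scaled by the authors so that an array's 5th percentile is 1. How probe sets were summarised is not given in the sources used here, and detection calls are absent from the table. The platform annotation gave a single symbol to 21044 of 25175 probe sets, several to 1492 and none to 2639. Gene numbers of all 82 genes matched the mouse gene table (GRCm38.p6), from which names alone were taken.

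Log2 ratios were fitted with limma 3.58.1 in R 4.3.3 (lmFit and eBayes) over the 12587 probe sets whose mean log2 ratio exceeded the median over all probe sets, a ratio of 2.08, with the time course as a block and Benjamini-Hochberg adjustment at 0.05 over all of them. The block was used because the study fits each course by itself. Of 30 pairs of arrays with the same replicate number 29 had deviations that correlated over 0.1 (median 0.362), against 14 of 60 other pairs (median -0.216). Half-lives and paralog pairs were computed in Python 3.11.15 with numpy 2.4.6, scipy 1.17.1 and pandas 2.3.3, and plots with matplotlib 3.10.9. The scripts were tested on simulated data. Depth is not defined for arrays, and their number limits the precision.

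The genes, lists, pairs and tests were chosen with earlier results of these data known. Named were Polr2a, Polr2b, Taf1, Taf7, Med1, Med13, Med14 and Gtf2b, the steepest and shallowest gene of each group, the 10 steepest faster and 10 shallowest slower genes, those with a half-life reliable in all 3 courses, the paralog pairs, tested genes without a called fall, genes below the level filter and the 2 steepest and 2 shallowest of each other list. Others named beside these (Med26, Med8, Med16, Med21, Med24, Taf3, Taf8, Taf13, Taf1d, Gtf2e1, Gtf2e2, Gtf2f1, Gtf2f2 and the remaining reliable half-lives) were chosen after their values were seen. Alternatives covered scaling, level filter, block, variance model, probe set, floor, decay model, replicates and time points. No sequences are printed, because probe sequences were not used here.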

Additional observations from a re-analysis of the deposited data

How the results depend on the processing

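With each array divided by its median or by its 75th percentile, 45 and 20 of the 77 genes fell in the trend. Of the genes 1 and 4 were lower at 50 min, 21 and 13 at 110 min, and 32 and 19 at 230 min. Of all expressed probe sets 37.3% and 15.6% fell in the trend, and 0.906% and 2.66% were lower at 50 min. At 110 min 16.7% and 9.71% of all were lower, and at 230 min 28.2% and 14.5%. Under these 2 scalings 2 and 3 half-lives were reliable, and the median half-life was 8.53 and 15.7 hr. After quantile normalization 31 genes were faster and 13 slower, against 23.1% and 29.8% of all expressed probe sets. Under the median-deviation centring, added after the data were seen, 32 were faster and 6 slower, and 32 and 3 of the other transcription genes. The shares of all expressed probe sets were 25.2% and 23.1%. Without the 230 min arrays 10 genes were slower, against 31.2% of all expressed probe sets, and 2 paralog pairs differed. With 1 subtracted from the ratios (minimum 0.5) 2 pairs differed. With an intensity trend in eBayes 5 genes were lower at 50 min, against 3.14% of all expressed probe sets. A log-linear fit gave 22 reliable half-lives. Without the 2 low arrays 11 genes were lower at 50 min, against 7.68% of all expressed probe sets, and 5 half-lives were reliable. Leaving out 1 time course at a time gave 13 to 22 slower genes, 0 to 1 lower at 50 min and 3 to 14 reliable half-lives. Of all expressed probe sets 39.0% to 48.2% were then slower and 0.493% to 1.02% lower at 50 min. The causes were not tested. For these settings the share of reliable half-lives was not counted over all expressed probe sets.

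Without the replicate block, that is without pairing the arrays by time course, 76 genes fell, 19 were faster, 18 slower and 1 lower at 50 min. Of all expressed probe sets 95.3% fell, 13.9% were faster, 44.7% slower and 0.922% lower at 50 min. Without the block 3 paralog pairs differed, the Taf4 pair being lost (permutation adjusted p = 0.098).

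The relative slopes of 59 named genes were recomputed 825 times in all. In 728 the call and its direction held, or the direction changed with neither value past the threshold (22), in 85 it was lost and in 10 a call was gained. In 2 the sign changed with 1 of both values past the threshold: Taf4b, called neither way, became faster after quantile normalization (-0.11, limma adjusted p = 0.0038), and Taf6l, called slower, lost its call at -0.016 with 1 subtracted (adjusted p = 0.67). Signal near the 5th percentile limits the late values of Med18, Med26, Taf5, Taf4b and Polr2k. It also limits others with reliable half-lives, among them Med7, Med17, Taf5l, Taf8 and Taf1c, which lay between 1.18 and 2.19 at 230 min.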
